A study of Mus musculus with 8 samples.

Results

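The 37 genes described here encode proteins that fold, move and dispose of polypeptides in the endoplasmic reticulum (ER). They were chosen as a list of symbols and matched to rows of a table of 35275 genes: 15 chaperones and folding enzymes, 9 subunits of the translocon and its partners, 10 genes of ER-associated degradation (ERAD) and 3 genes of stress signaling. All 37 had a row and all 37 passed the filter on low counts. They were measured by RNA sequencing of whole liver from 4 Pcx L-/- mice, in which Albumin-Cre removes a floxed exon 10 of pyruvate carboxylase (Pcx) from hepatocytes, and from 4 littermate controls, labelled WT and described in the study as floxed mice without the deletion. All 8 were male C57BL/6 mice, 9 weeks old, fasted for 24 h, and each library is 1 mouse. Fasting was thus common to both genotypes, and no fed liver was analysed here.

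Secreted and membrane proteins enter the ER through the Sec61 channel, and in the lumen they are bound by chaperones, given disulfide bonds by protein disulfide isomerases, and, if they carry N-glycans, retained by lectins until folded. Proteins that fail are drawn back to the cytosol by ERAD, where they are ubiquitinated and degraded. When unfolded proteins build up, the sensors ATF6, IRE1 (gene Ern1) and PERK (gene Eif2ak3) start the unfolded protein response, which raises chaperone and ERAD genes. Hepatocytes secrete most plasma proteins and so hold an extensive rough ER.

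The libraries held 12016242 to 20023108 reads counted on genes. Pcx counts were 14370 to 22059 normalized counts in control liver and 556 to 758 in Pcx L-/- liver (log2 fold change -4.80, SE 0.19, adjusted p = 3.66e-07, edgeR quasi-likelihood test with Benjamini-Hochberg adjustment, as for every adjusted p below unless another tool is named). Normalized counts are reads scaled by the effective library size, so that they compare one gene between mice and not genes with each other. The 8 hepatocyte markers summed to 1651000 to 2006000 normalized counts in control and 946000 to 1445000 in Pcx L-/- liver, with 0 of 8 higher and 3 of 8 lower (Apoa1, Trf and Fgb). The median log2 fold change of all 8 was -0.62, and all 8 were below 0, as were 6661 of the 13168 genes tested. Over all genes tested, 14.1% were called higher and 13.5% lower, the shares to set beside each count of markers here. In whole liver, fewer cells of a type and less RNA per cell cannot be told apart. Plasma cells and pancreatic acinar cells are other secretory cells rich in ER proteins. A joint list of plasma cell and B cell markers summed to 118.8 to 260.4 normalized counts in control and 184.3 to 284 in Pcx L-/- liver, with 0 of 6 tested called. The acinar list summed to 76.4 to 158 and 155 to 176. The acinar sum was almost all Cela1, with means of 99.2 in control and 162.8 in Pcx L-/- liver and a log2 fold change of 0.70 (adjusted p = 0.0202), and does not describe the cell type. The other 9 acinar markers did not pass the filter on low counts. Of these, Amy2a5 was at 0 in every library, and Cela2a had means of 6.38 and 1.69. Macrophage markers gave 1 higher of 8 (Cd68), cholangiocyte markers 1 lower of 5 tested (Sox9), and endothelial, stellate and red blood cell markers 0, the last with sums of 4749 to 16720 in control and 6244 to 69340 in Pcx L-/- liver. The part of any of these lists in the results was not tested.

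Of the 37 ER genes, 5 were higher in Pcx L-/- liver at an adjusted p under 0.05 (Derl1, Atf6, Sec61g, Ssr2 and Sec61a1), 1 was lower (Herpud1) and 31 did not pass, so that 16.2% were called where 27.6% of the 13168 genes tested were. Among all genes tested, 14.1% were called higher and 13.5% lower. The median log2 fold change of the 37 was 0.19, against -0.01 over all genes. The translocon genes gave 3 higher and 0 lower of 9, the ERAD genes 1 higher and 1 lower of 10, the stress genes 1 higher of 3, and the chaperones 0 of 15. At an unadjusted p under 0.05, 8 of the 37 were higher and 2 lower, where 39% of all genes passed. The 4 mice of one genotype lay wholly beyond the 4 of the other for 5 of the 37 (Derl1, Herpud1, Sec61g, Ssr2 and Ssr4), against 27.6% of all genes.

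The counts moved with the analysis. The DESeq2 Wald test called 7 of the 37 higher and 2 lower (27.4% of all genes called, 13.4% higher and 13.9% lower). Scaling by library size only, without TMM factors, called 13 higher and 0 lower, but it also moved the median of all genes from -0.01 to 0.28 and called 36.3% of them, 29.7% higher and 6.61% lower. Without Pcx L-/- 1 there were 8 higher and 2 lower (34.5% of all genes, 16.7% and 17.8%), and without control 4 there were 8 and 1 (27.2%, 14.2% and 13%). Leaving out other mice lost calls. There were 2 higher and 0 lower without control 1 (20.4% of all genes called), control 3 (19.5%), Pcx L-/- 2 (17.3%), Pcx L-/- 3 (18.6%) or Pcx L-/- 4 (15.7%), the 2 being Derl1 and Ssr2, and 3 higher and 2 lower without control 2 (23.9%). With the number series described below as a covariate there were 6 and 1 (26.8%, 13.4% and 13.4%).

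**Figure D1:**
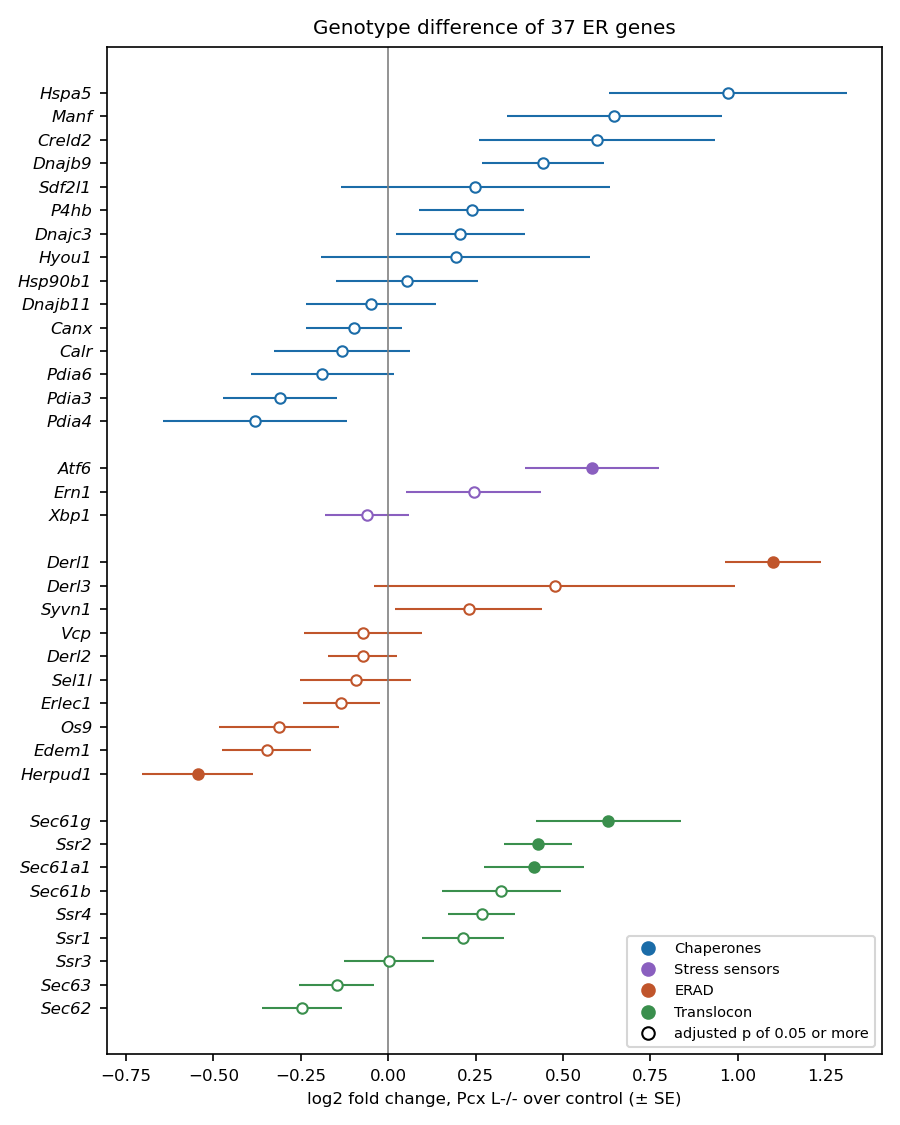
Log2 fold change (Pcx L-/- over control, n = 4 each) of the 37 ER genes with its standard error, ordered within each class; filled points passed an adjusted p of 0.05. Derl1 stands at 1.10 and Herpud1 at -0.55, and all 15 chaperone points are open, from -0.38 to 0.97.

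By level per length, chaperones led the list. FPKM, the deposited unit of fragments scaled by gene length and library total, averaged 419 in control liver for P4hb (protein disulfide isomerase), 310 for Calr (calreticulin, a glycoprotein-binding lectin), 242 for Herpud1 (an ERAD scaffold) and 214 for Hspa5 (BiP, the Hsp70 of the ER lumen). Hsp90b1, the ER Hsp90, and Pdia3, the isomerase that works with calreticulin, followed at 131 and 126 FPKM. The translocon genes spanned 8.66 to 55.1 FPKM. Derl3 was the lowest at 1.59 FPKM, and Ern1 was next at 8.15. The ranges over the 4 control mice overlapped for every pair of neighbors in the order of the 37 except Ern1 and Derl3, so that the order of the other neighbors did not exceed their spread.

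**Figure D2:**
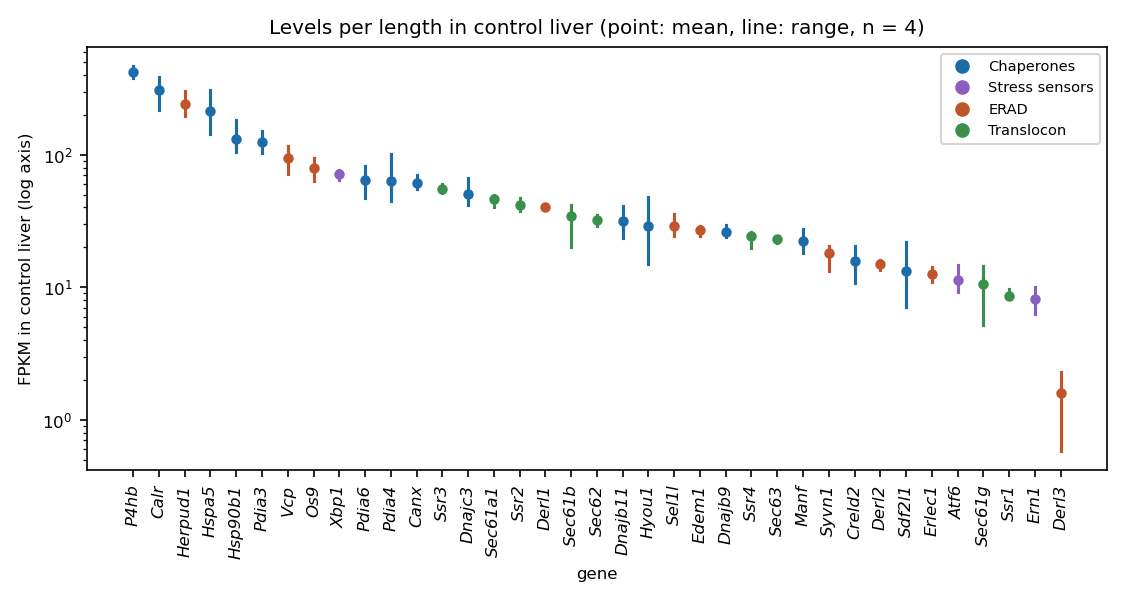
FPKM in control liver on a log axis for the 37 genes in order of level; points are means of 4 mice, lines the lowest to highest mouse. P4hb at 419 and Derl3 at 1.59 mark the ends.

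None of the 15 chaperone and folding genes passed the test at an adjusted p under 0.05, and 2 were higher at an unadjusted p under 0.05, Hspa5 and Dnajb9. The DESeq2 Wald test called 1 of them, Hspa5 (adjusted p = 0.0150). Of the 15, 9 had a log2 fold change above 0 and 6 below. Hspa5 had 8742, 6722, 10671 and 16523 normalized counts in controls 1 to 4 and 9909, 30666, 19138 and 23961 in Pcx L-/- mice 1 to 4. Mice 2, 3 and 4 of the Pcx L-/- group were above every control, and mouse 1 lay among the controls. The log2 fold change was 0.97 (SE 0.34, 95% interval 0.14 to 1.80, adjusted p = 0.0537), and the value turned on single mice: the adjusted p was 0.0212 without control 4, 0.00496 without Pcx L-/- 1 and 0.161 without Pcx L-/- 2.

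Smaller genes of the class were high in the same mice. Dnajb9 (ERdj4, a BiP cochaperone) had 843, 812, 1008 and 984 normalized counts in control and 903, 1693, 1103 and 1254 in Pcx L-/- liver (log2 fold change 0.44, SE 0.17, adjusted p = 0.0812). Again Pcx L-/- 1 lay inside the control range and the other three above it. Manf, a secreted ER protein that binds BiP, had a log2 fold change of 0.65 (adjusted p = 0.144) and Creld2, a small ER protein, of 0.60 (adjusted p = 0.217). Both were lower in Pcx L-/- 1 than in any control, at 598 and 243 normalized counts, and higher in Pcx L-/- 2, 3 and 4 than in any control. Without Pcx L-/- 1, 4 chaperones were called higher (Hspa5, Dnajb9, Manf and Creld2, adjusted p 0.00237 to 0.0135), where 16.7% of all genes were called higher.

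P4hb and Calr, the most abundant of the class per length, gave smaller differences. P4hb had 21414, 19660, 22057 and 27171 normalized counts in control and 29756, 24575, 27549 and 24651 in Pcx L-/- liver, a log2 fold change of 0.24 (95% interval -0.13 to 0.60, adjusted p = 0.265). It overlapped through control 4. Calr had 12328, 8527, 13105 and 17229 in control and 10513, 13458, 11092 and 11633 in Pcx L-/- liver, a log2 fold change of -0.13 (95% interval -0.61 to 0.35, adjusted p = 0.658). All Pcx L-/- values of Calr lay inside the control range. Hsp90b1 gave 0.05 (95% interval -0.44 to 0.55), Canx (calnexin, the membrane-bound lectin) -0.10, Pdia3 -0.31, Pdia6 -0.19 and Pdia4 -0.38. Of the remaining 4, Dnajc3, Sdf2l1 and Hyou1, all BiP partners, gave 0.19 to 0.25 and Dnajb11, another cochaperone, -0.05.

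An order among the mice ran through the chaperones in both genotypes. Each library name ends in a number, in the 500s for controls 1 and 2 and Pcx L-/- 1 and in the 800s for the other 5. The sources used here do not say what the number stands for. In control liver, both mice of the 500s were below both of the 800s for 15 of 15 chaperones, against 19.6% of all genes tested. In Pcx L-/- liver, the single mouse of the 500s was below the 3 of the 800s for 14 of 15 (all but P4hb), against 35.0% of all genes. Both held together for 14 of 15 chaperones and 7.85% of all genes, and for 3 of 10 ERAD genes, 3 of 9 translocon genes and 2 of 3 stress genes. All genes were read in the same mice, so 14 of 15 is not a count of independent observations. The spread of the chaperones between control mice had a median SD of 0.418 on the log2 scale, against 0.236 over all genes and 0.182 for the translocon.

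With the number series as a covariate, the median log2 fold change of the 15 chaperones was -0.03 instead of 0.19, and 1 was called higher, where 13.4% of all genes were. That gene was Hspa5, with a log2 fold change of 0.68 (SE 0.22, adjusted p = 0.0393). Within the 800s (2 controls, 3 Pcx L-/- mice) its log2 ratio of means was 0.86 with no overlap, and within the 500s (2 controls, 1 Pcx L-/- mouse) 0.36. In the 500s, the single Pcx L-/- mouse, at 9909 normalized counts, was also above both controls, at 8742 and 6722. Manf and Creld2 had opposite signs in the series, 0.69 and 0.54 in the 800s and -0.41 and -0.34 in the 500s, and with the covariate they gave 0.32 and 0.25 (adjusted p = 0.311 and 0.407). Hsp90b1, Hyou1 and Sdf2l1 went from above 0 to -0.02, -0.09 and -0.03. The 500s held 1 Pcx L-/- mouse, so no spread could be taken within that series for this genotype. Library depth ran from 16642285 to 20023108 reads in the 500s and from 12016242 to 19116431 in the 800s, so the ranges overlapped. The deepest library, control 1, was in the 500s and the shallowest, control 4, in the 800s. The part of depth in this order was not tested.

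**Figure D3:**
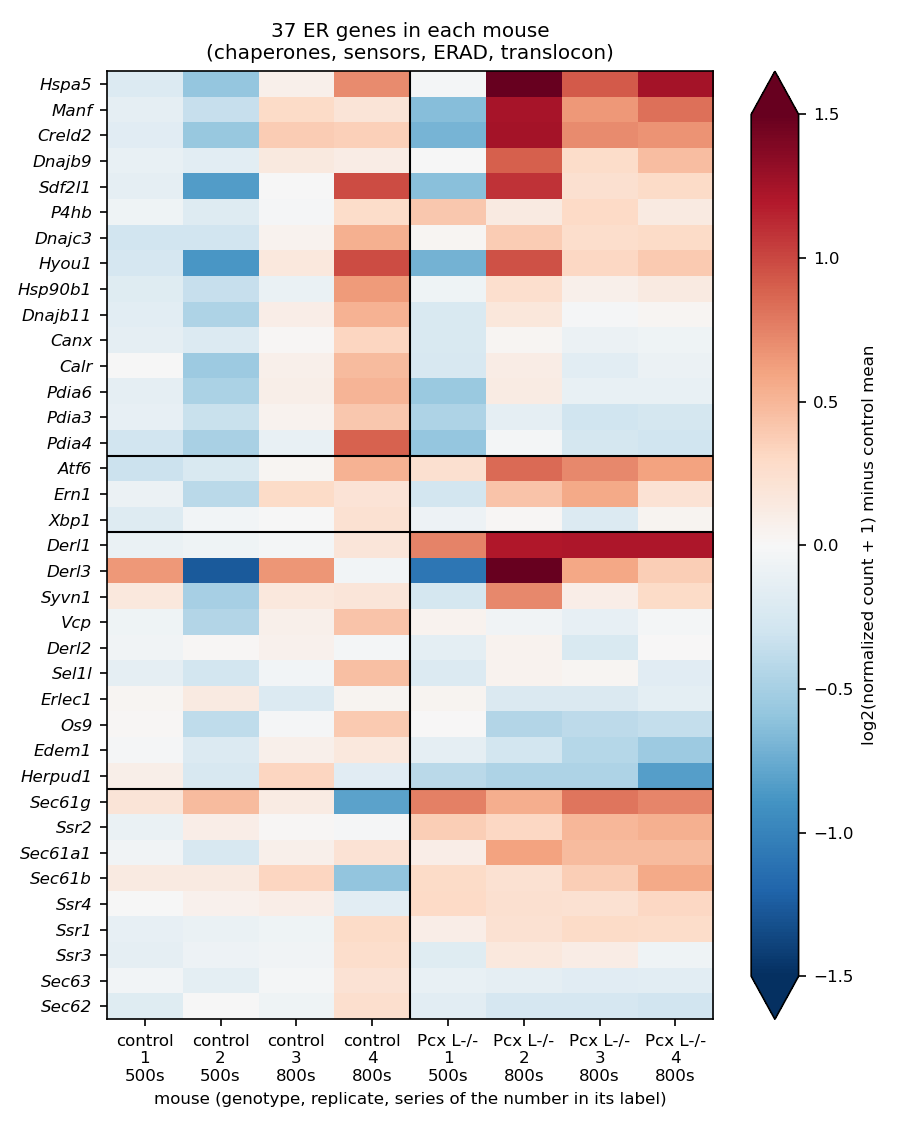
Log2(normalized count + 1) of each gene in each mouse minus the mean of the 4 controls; rows are the 37 genes by class, columns the 8 mice with the series of the number in their labels. In the chaperone block, the columns of the 500s (controls 1 and 2, Pcx L-/- 1) are the low ones of each genotype, except in the P4hb row, where Pcx L-/- 1 is the highest of its genotype, and the Derl1 row is high in all 4 Pcx L-/- columns.

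Promoter letters are shown because the chaperones are the classical carriers of the ER stress response element (ERSE), the site through which ATF6 and XBP1 act. Promoters were taken from RefSeq (GRCm38.p6, 250 bases before to 50 after the start), which gave one for 30 of the 37 genes, and both strands were searched. The ERSE, CCAAT and CCACG with 9 bases between them, was in 9 of those 30 (30%) and in 39 of all 32851 promoters (0.119%). Each hit is printed 5′ to 3′ in the direction of the motif, its fixed bases in capitals.
Hspa5: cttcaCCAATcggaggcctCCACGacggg
Hsp90b1, far copy: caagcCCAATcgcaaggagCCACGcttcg
Hsp90b1, near copy: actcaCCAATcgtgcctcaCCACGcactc
Calr: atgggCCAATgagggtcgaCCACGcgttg
Canx: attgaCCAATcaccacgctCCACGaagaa
Pdia6: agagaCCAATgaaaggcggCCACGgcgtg
Dnajc3: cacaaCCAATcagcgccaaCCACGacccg
Creld2: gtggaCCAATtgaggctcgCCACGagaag
Derl3: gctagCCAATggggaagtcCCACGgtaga
Syvn1: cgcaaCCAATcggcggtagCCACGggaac

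The Hspa5 stretch is chr2:34772020-34772048 on the plus strand, with the motif at -65 to -47 from the RefSeq start, inside an exon of a GENCODE transcript that begins further upstream. Those of Hsp90b1 begin at -212 and -107, and that of Syvn1, the ERAD ligase HRD1, lies closest to its start, at -44. Of the 9 genes that hold the motif, 0 passed the test, where 27.6% of all genes tested did. Their log2 fold changes ran from -0.19 for Pdia6 to 0.97 for Hspa5. No RefSeq promoter was found for Manf, Atf6, Erlec1, Derl1, Sec61a1, Hyou1 and Ssr2, so these genes could not be searched. Because Derl1, Atf6, Sec61a1 and Ssr2 passed the test, the count of 0 cannot tell whether called genes lack the motif.

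The shorter ERSE-II, ATTGG and CCACG with 1 base between them, was in 12 promoters (0.0365%), among them Dnajb11 and Herpud1. UPRE, TGACGTGG, was in 222 (0.676%), among them Vcp, and CARE, TGATGNAAT, which ATF4 binds, in 317 (0.965%) and in 0 of the 30. Only these exact letters were counted, so the 0 does not cover sites with another last base. The Herpud1 stretch below holds gttgcatca, which on the opposite strand differs from the CARE letters only in that base. It also ends in ccaatggatggcagccac, which is CCAAT, 9 bases and CCAC, the ERSE letters but for the last. No exact ERSE was found there, so Herpud1 is not among the 9 genes counted with that motif. The 250 bases before the Herpud1 start, chr8:94386179-94386428 on the plus strand, hold the ERSE-II (capitals) close to the start and are printed because Herpud1 was the only one of the 37 genes called lower.
Herpud1: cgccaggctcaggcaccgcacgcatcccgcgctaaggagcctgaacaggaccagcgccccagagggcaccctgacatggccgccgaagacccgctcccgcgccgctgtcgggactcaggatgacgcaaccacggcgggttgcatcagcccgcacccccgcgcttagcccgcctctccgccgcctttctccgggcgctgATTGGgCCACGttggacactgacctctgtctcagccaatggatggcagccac

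In ERAD, Derl1 and Herpud1 moved in opposite directions. Derl1 (ENSMUSG00000022365, minus strand, chr15:57869502-57892448) encodes derlin-1, a rhomboid-like membrane protein that helps substrates leave the ER. It had 2229, 2287, 2345 and 2715 normalized counts in controls 1 to 4 and 3989, 5483, 5524 and 5526 in Pcx L-/- mice 1 to 4. Every Pcx L-/- mouse was above every control, and mouse 1, of the 500s, was the lowest of them. The log2 fold change was 1.10 (SE 0.14, adjusted p = 7.72e-04), a ratio of means of 2.14, and Derl1 passed the test in all 17 alternative analyses (log2 fold change 1.02 to 1.40). Within the 500s and the 800s, its log2 ratio was 0.82 and 1.12.

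Its paralogs did not pass. Derl2 had a log2 fold change of -0.07 (95% interval -0.32 to 0.17, adjusted p = 0.625). Derl3 gave 0.48 (95% interval -0.79 to 1.74, adjusted p = 0.532) at 14.1 to 108 normalized counts a mouse. The ratio of Derl1 to Derl2 reads within a library, which needs no scaling, was 1.83 to 2.25 in control and 3.58 to 5.26 in Pcx L-/- liver; this ratio was chosen after the values were seen.

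Herpud1 (chr8:94386438-94395377, plus strand) encodes a membrane protein that organizes the HRD1 ligase complex and is itself a stress-response gene. It had 9262, 7367, 10879 and 7746 normalized counts in control and 6603, 6326, 6332 and 4897 in Pcx L-/- liver. Every Pcx L-/- mouse was below every control, with Pcx L-/- 1 closest to the controls and Pcx L-/- 4 farthest from them. The log2 fold change was -0.55 (SE 0.16, adjusted p = 0.0262). It was below 0 in all 17 alternatives (-0.62 to -0.25) and passed in 8 of them, among those the fits without control 2, control 4 or Pcx L-/- 1. The fits that left out one of the other 5 mice gave an adjusted p of 0.0564 to 0.0932. Herpud1 was also lower within both series, with log2 ratios of -0.33 in the 500s and -0.67 in the 800s. An antisense gene, Gm15890, overlaps Herpud1 and had a log2 fold change of -1.30 (SE 0.40, adjusted p = 0.0316) on 229 reads in the 8 libraries. No source used here says whether reads were counted by strand, and without strand the reads of Herpud1 and its antisense partner cannot be told apart. This limit is not particular to Herpud1: counted over whole genes, 15 of the 37 are overlapped by a gene on the opposite strand. Manf, for one, is overlapped by Dcaf1, which had 5020 reads in the 8 libraries.

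The other ERAD genes gave smaller values. Edem1, a mannosidase-like factor that marks misfolded glycoproteins, had 2933, 2579, 3129 and 3325 normalized counts in control and 2706, 2452, 2205 and 2042 in Pcx L-/- liver (log2 fold change -0.35, SE 0.13, adjusted p = 0.0641). The groups overlapped through control 2 and Pcx L-/- 1. Vcp, the ATPase that pulls substrates out of the membrane, had 5520, 4283, 6111 and 7810 against 6007, 5577, 5310 and 5672 (log2 fold change -0.07, adjusted p = 0.789), all Pcx L-/- values inside the control range. A near-identical copy, Vcp-rs, shares 99.0% of the aligned sequence with Vcp, so reads from the shared stretch may not be assigned with certainty. Vcp-rs had 226 reads in the 8 libraries.

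Os9, a lectin of the HRD1 complex, had 6039, 4593, 5894 and 7827 against 5982, 4395, 4540 and 4677 normalized counts (log2 fold change -0.31, SE 0.17, adjusted p = 0.202). Pcx L-/- 1 lay with controls 1 and 3, and control 2 lay with Pcx L-/- 2, 3 and 4. Sel1l and Syvn1, the adaptor and ligase of the same complex, gave -0.09 (adjusted p = 0.708) and 0.23 (adjusted p = 0.449), and Erlec1, its other lectin, -0.13 (adjusted p = 0.398). The median of the 10 ERAD genes was -0.08.

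**Figure D4:**
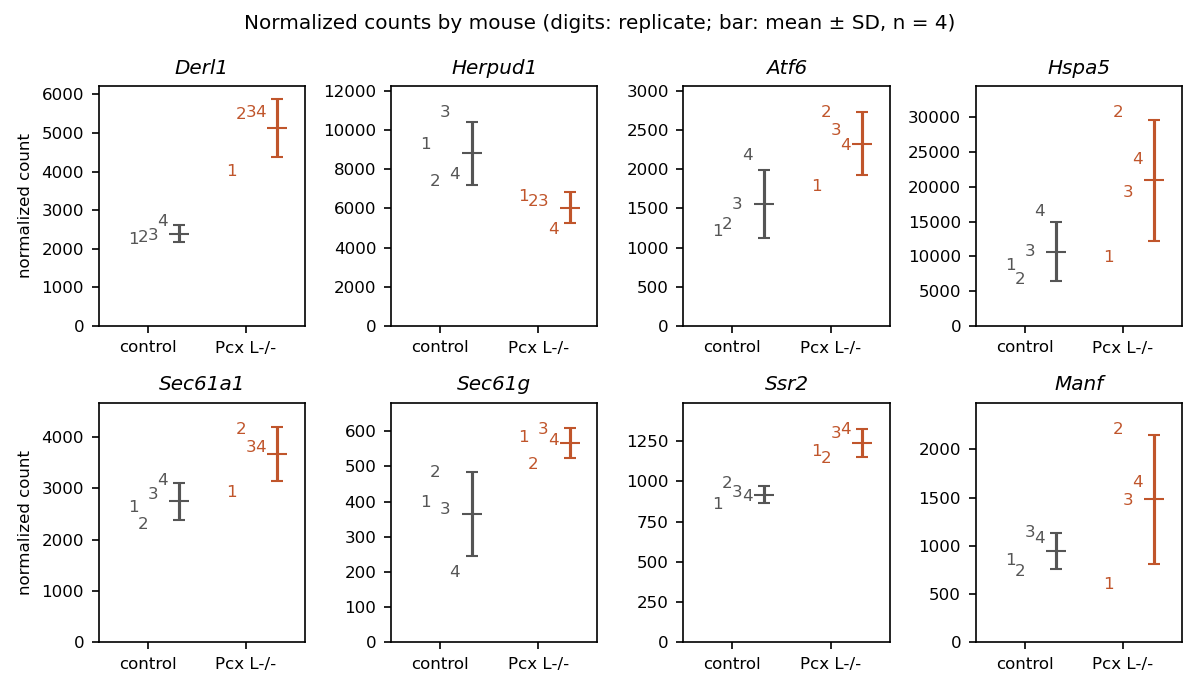
Normalized counts of 8 genes in each mouse, with digits for the replicate and bars for mean ± SD (n = 4). Derl1, Herpud1, Sec61g and Ssr2 show no overlap of the genotypes. Replicate 1 of the Pcx L-/- mice lies among the controls for Hspa5 and below all of them for Manf.

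In the translocon, 3 of 9 genes were higher and 0 lower in Pcx L-/- liver, and the median log2 fold change was 0.27. This is 33.3% called, near the 27.6% of all genes tested. Ssr2, the beta subunit of the translocon-associated protein (TRAP) complex, had 856, 985, 929 and 903 normalized counts in control and 1186, 1141, 1294 and 1324 in Pcx L-/- liver. The groups did not overlap, and the SD was 53.9 in control and 86.7 in Pcx L-/- liver. The log2 fold change was 0.43 (SE 0.10, adjusted p = 0.00886), and Ssr2 passed in all 17 alternatives (0.39 to 0.72). With Derl1 it was the only one of the 37 that did.

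Sec61a1, the pore subunit of the channel, had 2633, 2298, 2883 and 3155 normalized counts in control and 2920, 4148, 3782 and 3795 in Pcx L-/- liver. Pcx L-/- 1 lay below control 4 and the other three above all controls. Its log2 fold change was 0.42 (SE 0.14, adjusted p = 0.0490), and it passed in 8 of 17 alternatives, of the single mice left out only without control 4 (0.0288) or Pcx L-/- 1 (0.00775). Sec61g, the gamma subunit, had 397, 482, 377 and 199 in control and 583, 506, 606 and 574 in Pcx L-/- liver (log2 fold change 0.63, SE 0.21, adjusted p = 0.0423). Control 4, the shallowest library, was far below the other controls. Without it the log2 fold change was 0.44 (adjusted p = 0.0210), without control 2 it was 0.79 (adjusted p = 0.0211), and without any one of the other 6 mice the adjusted p was 0.0558 to 0.0992. Sec61b, the beta subunit, gave 0.32 (adjusted p = 0.186) and has near-identical copies in the annotation, Gm10320 and Gm5870.

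In both number series these 3 genes were higher in Pcx L-/- liver, with log2 ratios in the 500s and the 800s of 0.37 and 0.45 for Ssr2, 0.24 and 0.37 for Sec61a1 and 0.41 and 0.96 for Sec61g.

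The 4 TRAP subunits gave unlike values, a difference that was not tested. Ssr4, the delta subunit, had 1159, 1213, 1241 and 1035 normalized counts in control and 1430, 1372, 1362 and 1434 in Pcx L-/- liver, with no overlap, but its log2 fold change of 0.27 (SE 0.10) missed the threshold (adjusted p = 0.0583). Ssr3, the gamma subunit and the most abundant translocon gene per length at 55.1 FPKM, had 2779, 2887, 2953 and 3656 against 2694, 3396, 3289 and 2914 (log2 fold change 0.00, 95% interval -0.31 to 0.32). The genotypes overlapped throughout. Ssr1, the alpha subunit, gave 0.21 (adjusted p = 0.200). Sec62 and Sec63, membrane partners of the channel in posttranslational import, were the 2 translocon genes below 0, at -0.25 (adjusted p = 0.136) and -0.15 (adjusted p = 0.343).

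Among the stress sensors, Atf6 was higher. Atf6 (chr1:170704674-170867771, minus strand) encodes a membrane-bound transcription factor cleaved under ER stress, a step that mRNA counts do not measure. It had 1210, 1292, 1550 and 2169 normalized counts in control and 1782, 2721, 2493 and 2306 in Pcx L-/- liver. Only control 4 reached into the Pcx L-/- range. The log2 fold change was 0.58 (SE 0.19, adjusted p = 0.0427), and 11 of 17 alternatives passed. It passed without control 4 (adjusted p = 0.00710) or Pcx L-/- 1 (0.0119) but not without any single one of the other 6 mice (edgeR, 0.0932 to 0.120). With the number series as covariate it was 0.46 (adjusted p = 0.0216).

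Ern1, the gene of IRE1, had 982, 791, 1280 and 1208 against 862, 1411, 1548 and 1221 normalized counts (log2 fold change 0.24, SE 0.19, adjusted p = 0.381). Xbp1, whose mRNA IRE1 splices, had 2507, 2789, 2861 and 3354 against 2719, 2891, 2484 and 2942 (log2 fold change -0.06, 95% interval -0.35 to 0.23, adjusted p = 0.750). Both overlapped between the genotypes. Counts per gene do not separate spliced from unspliced Xbp1.

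For 112 other genes of the same pathway, listed from general knowledge, 111 were tested, and 21 were higher and 8 lower (median log2 fold change 0.10), so that 26.1% were called, where 27.6% of all genes were. Of 29 other chaperones and isomerases, 4 were higher and 4 lower (27.6% called, the share of all genes). Txndc12, a thioredoxin-like ER protein, was up by 0.78, Cnpy2 by 0.54 and Dnajc10, the disulfide reductase ERdj5, by 0.49 (adjusted p 0.00120 to 0.00723). Tmx4, a membrane thioredoxin, fell by 0.83, and Pdia5 and Fkbp2 by 0.39 each (adjusted p 0.00662 to 0.0207).

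The 17 glycan-processing genes gave 4 higher and 0 lower (23.5% called, against 27.6% of all genes). Krtcap2, a subunit of oligosaccharyltransferase, which attaches N-glycans beside the translocon, had 477, 456, 454 and 423 normalized counts in control and 618, 898, 873 and 898 in Pcx L-/- liver, with no overlap (log2 fold change 0.86, SE 0.13, adjusted p = 0.00136). Tusc3 and Stt3b gave 0.62 and 0.55 (adjusted p = 0.00561 and 0.0173), and the fourth was Stt3a, one of the catalytic subunits. Most of the list encodes subunits of oligosaccharyltransferase, and Rpn1, Rpn2, Ddost, Dad1, Ostc, Ost4, Tmem258 and Magt1 did not pass (-0.14 to 0.55).

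Of 26 genes of targeting and signal peptidase, 6 were higher and 1 lower (26.9% called, against 27.6% of all genes). The highest were Wrb at 0.62, Asna1 at 0.58 and Spcs1 at 0.53 (adjusted p = 0.0454, 0.00386 and 0.00885). Wrb is part of the membrane receptor for tail-anchored proteins, Asna1 is the ATPase that brings them to it, and Spcs1 is a subunit of signal peptidase. The others were Caml, Get4 and Srp19. Emc8, of the ER membrane complex, fell by 0.41 (adjusted p = 0.0286).

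Of 28 other ERAD genes, 3 were higher and 3 lower (21.4% called, against 27.6% of all genes). Erlin1, of a membrane complex that degrades inositol trisphosphate receptors, had 594, 715, 670 and 485 normalized counts in control and 1048, 1224, 1168 and 1103 in Pcx L-/- liver, with no overlap (log2 fold change 0.88, SE 0.13, adjusted p = 0.00118). Ubxn4 and Selenos, which bind Vcp, gave 0.41 and 0.40. Svip, a Vcp inhibitor, and the ligase Rnf5 fell by 0.49 and 0.48 (adjusted p = 0.0388 and 0.0305).

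Of 11 other stress transducers, 4 were higher and 0 lower, where 14.1% of all genes were higher and 27.6% were called in either direction. Eif2ak3, the gene of PERK, was up by 0.59, Mbtps2, the protease that makes the second cut in ATF6, by 0.49, and Creb3, another membrane-bound factor, by 0.49 (adjusted p = 0.0305, 0.0268 and 0.00444). The fourth was Nfe2l1.

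**Figure D5:**
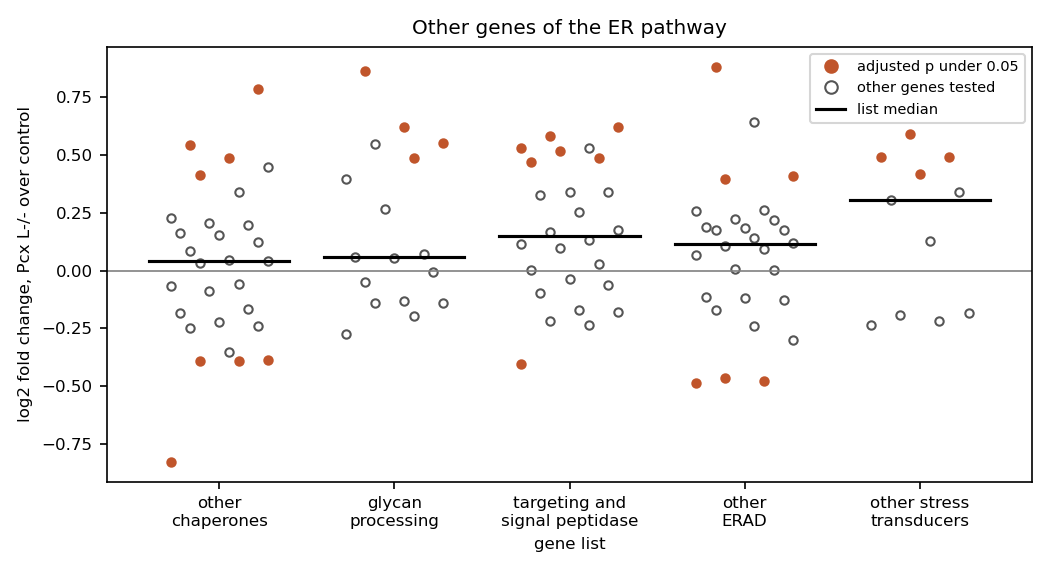
Log2 fold change (Pcx L-/- over control) of the 111 other ER genes tested, by list; filled points passed an adjusted p of 0.05 and bars are list medians. Krtcap2 at 0.86 and Erlin1 at 0.88 are the highest points and Tmx4 at -0.83 is the lowest.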

How the data were processed

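Liver RNA from 8 mice was sequenced by a commercial provider. Per the labels, the authors' tools were STAR 2.5, HTSeq 0.6.1 and DESeq2 with mm10; no source used here names the annotation release or strand setting. The authors deposited raw read counts per Ensembl gene and FPKM, which equaled count over length and total count for 100% of 142384 values (relative tolerance 1e-06). Of 35275 gene IDs, 34490 matched GENCODE M21. Counts were tested with edgeR 4.0.16 (TMM factors, filterByExpr at a count of 10 and a total of 15, quasi-likelihood F test, Benjamini-Hochberg over 13168 genes, threshold 0.05). Normalized counts are reads over the effective library size, times its geometric mean. The 95% intervals used 6 residual degrees of freedom. Alternatives, 17 in all, used other scaling, DESeq2 1.42.0, no filter, limma 3.58.1 on log2(FPKM + 1) or log2(FPKM + 0.1), a covariate, a block, and each mouse left out. The fits were also run on simulated counts, drawn with the means and the common dispersion of these data. There edgeR recovered 184 of 195 changed genes tested, with 5 false calls.

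Values in every mouse are given for genes of the 37 with an unadjusted p under 0.05, the 3 of each class with the highest FPKM, and the 3 sensors; a few others were named after their values were seen. Of the other pathway genes, up to 3 highest and 3 lowest of each list past the threshold are named with values. One of them is not reported here. The members and lists were chosen with earlier results of these data known. The number of mice limits the precision, and intervals on counts were not used. Near-identical transcripts were searched with blastn 2.17.0+ (at least 90% identity over at least 50% of the length), and 2 of 37 genes had one.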

Additional observations from a re-analysis of the deposited data

Results flagged for a closer look

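Among 74 groups of 4 mice (37 genes in 2 genotypes), 4 held a mouse whose gap to its nearest neighbor, as a share of the group's range, exceeded Dixon's 95% critical value. Chance gives about 1 in 20. Derl1 was lowest in Pcx L-/- 1, at 3989 normalized counts against 5483 in the next mouse (gap 0.972 of the range). Herpud1 was lowest in Pcx L-/- 4, at 4897 against 6326 (0.838). Syvn1, the HRD1 ligase, was lowest in control 2, at 968 against 1517 (0.949), and Ssr1, a TRAP subunit, was highest in control 4, at 1836 against 1441 (0.869). Pcx L-/- 1 was the Derl1 mouse closest to the controls, and Pcx L-/- 4 the Herpud1 mouse farthest from them.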

How the results depend on the processing

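None of the 6 genes called changed sign in any of the 17 alternatives, and Derl1 and Ssr2 passed the test in all. Of the 6 calls, 2 remained without control 1, control 3 or Pcx L-/- 2, 3 or 4, 4 remained without control 2, and 5 or 6 in every other setting. With library size only, the median of all genes moved to 0.28 and 3915 genes were higher and 870 lower (81.8% of calls higher, against 51.1%); the TMM factors it leaves out were 0.833 to 0.942 in control and 0.970 to 1.17 in Pcx L-/- libraries. Chaperones called higher were then 5, ERAD genes lower 0 and translocon genes higher 6. With limma on log2(FPKM + 1), where the tool and the scaling change together, these were 3822, 823, 4, 0 and 6, with log2(FPKM + 0.1) 3779, 822, 4, 0 and 6, and with every gene above 0 kept 3189, 637, 1, 0 and 5. Under these 4 settings, in that order (the first limma values also hold with every gene above 0), uncalled genes below 0 turned positive: Calr 0.18, 0.19 and 0.19, Canx 0.20, 0.19 and 0.20, Derl2 0.22, 0.20 and 0.21, Dnajb11 0.26, 0.26 and 0.27, Erlec1 0.14, 0.14 and 0.15, Pdia6 0.13, 0.12 and 0.12, Sec62 0.0435, 0.0435 and 0.0448, Sec63 0.14, 0.14 and 0.14, Sel1l 0.21, 0.21 and 0.21, Vcp 0.23, 0.24 and 0.24, and Xbp1 0.23, 0.23 and 0.23. Herpud1 stayed below 0 there but did not pass.

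The chaperones called higher were 1, Hspa5, with no filter on low counts, with the DESeq2 Wald test, with the replicate block and with the number series as covariate. The DESeq2 Wald test called 2 ERAD genes lower. Ssr3 turned to -0.00532 with it and -0.00803 with DESeq2 size factors, and with the covariate Ssr3, Hsp90b1, Hyou1 and Sdf2l1 turned to -0.0552, -0.0249, -0.0913 and -0.0329. The replicate numbers did not pair the mice: same-numbered mice had correlations of 0.101, -0.131, -0.101 and -0.0703 in their deviations. The replicate block took Hspa5 to an adjusted p of 0.0493 and Sec61a1 to 0.0809 and changed no other call of the 37 genes.

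Leaving out each mouse in turn gave 1156 to 2232 genes higher and 953 to 2370 lower, 0 to 4 chaperones higher, 0 to 2 ERAD genes lower and 1 to 4 translocon genes higher, with the fewest calls over all genes without Pcx L-/- 4 and the most without Pcx L-/- 1. Atf6 and Sec61a1 passed only without control 4 or Pcx L-/- 1, Sec61g only without control 2 or 4, and Herpud1 only without control 2, control 4 or Pcx L-/- 1. Adjusted p values otherwise ran to 0.120, 0.142, 0.0992 and 0.0932. Signs of uncalled genes turned, mostly without control 4, over the ranges -0.29 to 0.0433 (Calr), -0.17 to 0.018 (Canx), -0.068 to 0.77 (Derl3), -0.19 to 0.15 (Dnajb11), -0.0598 to 0.31 (Hsp90b1), -0.0813 to 0.61 (Hyou1), -0.54 to 0.00728 (Pdia4), -0.33 to 0.00476 (Pdia6), -0.10 to 0.66 (Sdf2l1), -0.18 to 0.0777 (Sel1l), -0.0481 to 0.0964 (Ssr3), -0.20 to 0.0876 (Vcp) and -0.12 to 0.02 (Xbp1). The cause of these changes was not tested.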

Other observations

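Ratios within a library carry no scaling, and those given here were chosen after the values were seen. Reads of Hspa5 over reads of Hsp90b1, the ER Hsp90, were 1.29, 1.11, 1.48 and 1.38 in controls 1 to 4 and 1.34, 3.33, 2.34 and 2.84 in Pcx L-/- mice 1 to 4. Hspa5 over Calr was 0.709 to 0.959 in control and 0.943, 2.28, 1.73 and 2.06 in Pcx L-/- liver. Both ratios were higher than in any control in Pcx L-/- 2, 3 and 4, the mice with label numbers in the 800s, and within the control range in Pcx L-/- 1. Ssr2 over Ssr3, both TRAP subunits, was 0.247 to 0.341 in control and 0.336 to 0.454 in Pcx L-/- liver, overlapping in 1 mouse.

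Some of the 37 genes share a start region with a gene on the other strand. Of 7 coding neighbors tested whose start lay within 1000 bp in the opposite direction, 1 was called higher, where 14.1% of all genes tested were. It was Alg12, a mannosyltransferase of N-glycan synthesis that starts 328 bp from Creld2 (log2 fold change 0.65, SE 0.20, adjusted p = 0.0343, edgeR). Tbccd1 beside Dnajb11 gave -0.30 (adjusted p = 0.0541, edgeR), and Idh3g beside Ssr4, a subunit of mitochondrial isocitrate dehydrogenase, gave 0.15 (adjusted p = 0.347, edgeR).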
